A study of Mus musculus with 20 samples.

Results

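The proteasome subunit genes were examined in the quadriceps, a thigh muscle, of young male offspring of dams fed a high-fat or a low-fat diet. Members were all probes whose gene name begins with Psma, Psmb, Psmc or Psmd and a number, kept where the probe was well above background in the sample dye on at least 10 of the 20 arrays. Of 49 such probes 46 were kept, out of 19206 probes tested. The kept probes represent 38 genes, of which 37 encode subunits or dedicated assembly factors of the proteasome. The remaining gene, Psmc3ip, matches the name pattern but encodes no subunit. It is known as a partner in meiotic recombination, so it was described apart. The rule itself used gene names and detection over all arrays together, and not the difference between the groups.

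The offspring were male C57BL/6J mice aged 6 weeks, and all of them ate a low-fat diet (10% of energy from fat) after weaning. Dams of the mHFD group received 40% of energy from fat and dams of the mLFD group 10%, starting 3 days before mating, at 8 weeks of age, and lasting through pregnancy and lactation. Offspring were kept singly and fasted for 2 h before dissection. Each group held 10 mice with 1 array each, and a group could hold up to 4 siblings that the labels do not mark, so p-values measure the spread between these mice, which may not be independent. No genotype differed between the groups. RNA came from whole muscle, so fewer cells of a type and less RNA per cell cannot be told apart.

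The 26S proteasome is the protease that degrades proteins tagged with ubiquitin. Its barrel-shaped core particle is built from outer alpha rings (Psma genes) and inner beta rings (Psmb genes), and the active sites lie in the beta subunits encoded by Psmb5, Psmb6 and Psmb7. The regulatory particle has a base, with a ring of ATPases (Psmc genes) that unfold substrates, and a lid (most Psmd genes) that removes ubiquitin. Interferon gamma induces the alternative catalytic subunits encoded by Psmb8, Psmb9 and Psmb10, which replace Psmb5, Psmb6 and Psmb7 in newly assembled particles and give the immunoproteasome known from antigen presentation. In skeletal muscle the ubiquitin-proteasome system is the main route of protein breakdown in atrophy.

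Probes for Psmb8 and Psmb5 are shown first, because these subunits replace each other at the same catalytic site and their genes are related in sequence. The probes are 60-mers and are given in build mm9, 5′ to 3′ on the coding strand, with capitals for the bases that are identical in the best ungapped alignment of these probes. The Psmb8 probe lies at chr17:34337771-34337830 on the plus strand, and the dimmer of the 2 Psmb5 probes at chr14:55233161-55233220 on the minus strand. The pair shared 31 of 50 aligned bases, or 62.0%.
Psmb8: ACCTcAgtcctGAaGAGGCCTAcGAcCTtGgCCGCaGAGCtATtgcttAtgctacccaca
Psmb5: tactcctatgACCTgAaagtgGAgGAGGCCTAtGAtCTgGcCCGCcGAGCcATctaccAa
The Psmb9 probe, at chr17:34319174-34319233 on the minus strand, lies near Psmb8 in the genome and is given for contrast. Its best ungapped alignment with the Psmb8 probe held 19 identical bases of 58, or 32.8%.
Psmb9: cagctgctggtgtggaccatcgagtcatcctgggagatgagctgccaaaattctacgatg
Exon and UTR positions were not analysed here, because gene models of build mm9 were not used.

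The members were well detected in this muscle. Of the 37 subunit and assembly genes, all were well above background on 20 of 20 arrays with their brightest probe, and no member spot was saturated. Psmc3ip passed on 11 arrays. Psma8, a testis alpha subunit, Psmb11, a beta subunit of the thymic cortex, and a second Psmb9 probe did not rise well above background on any array (0 of 20) and were left out. Detection in the sample dye was alike in the groups, with 15506 to 23410 probes in mHFD arrays (mean 18977) and 16590 to 22532 in mLFD arrays (mean 19531). The 7 skeletal muscle markers (among them Acta1, Ckm and Myh4) were all measured. Of 8 leukocyte markers 5 were measured, and Ptprc and Ms4a1 were among those not well above background on enough arrays.

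Every value below is a log2 ratio of the signal of a mouse over that of the pooled RNA of all mice. A difference is the mHFD mean minus the mLFD mean on that log2 scale, with the standard error (SE) from limma, a linear model that shares information on the spread across all probes. Where a gene had several probes the brightest stands for it. A ratio near 0 means the level of the pool after normalization, and many members sat somewhat below 0 in both groups.

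No proteasome gene passed the threshold between the offspring groups. At an adjusted p of 0.05 (limma, Benjamini-Hochberg over all probes) 0 of 46 member probes were called, where 1 of all tested probes, or 0.00521%, was. Without adjustment 0 of 46 member probes had p under 0.05, against 7.14% of all probes. Of the 37 genes, 17 had a difference above 0 and 20 below 0, with a median of -0.04, and over all probes 51.6% were above and 48.4% below 0, with a median of 0.003. The differences ran from -0.24 for Psmc4 to 0.18 for Psmd12. Below an unadjusted p of 0.1 lay 7 of the 37 genes, where 13.9% of all probes did.

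The intervals bound how large a difference these arrays leave room for, if the mice are independent and position on the slide has no effect. In 32 of 37 genes the 95% interval of the difference lay wholly within 1.3-fold in either direction. Over all 37 genes the bounds reached 1.38-fold higher, for Psmd12, and 1.41-fold lower, for Psmc4. When each mouse was left out in turn, the sign of the difference was kept throughout in 27 of 37 genes, 11 above and 16 below 0. Neither this count nor that of the intervals was made over all probes, so neither shows a trait particular to the members. The median SE of a member was 0.07, against 0.06 for all probes, and the median residual SD was 0.16 against 0.14.

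**Figure D1:**
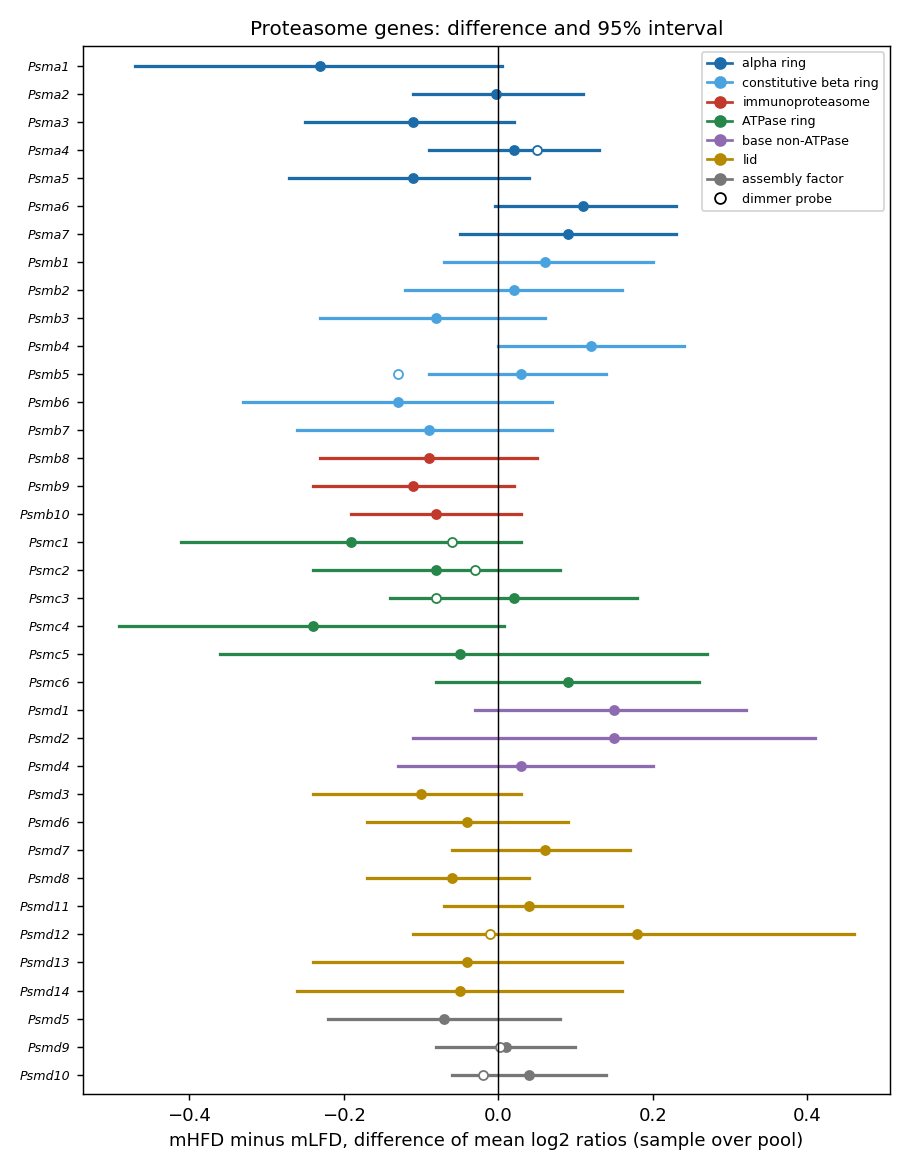
Difference of mean log2 ratios, mHFD minus mLFD, for each of the 37 proteasome genes, grouped and coloured by role. Filled points are brightest probes with 95% limma intervals (n = 10 per group), and open points are dimmer probes of the same gene. The points fall between -0.24 and 0.18, and every interval includes 0.

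Among the 14 constitutive core genes 7 were above and 7 below 0, with a median difference of 0.0076. Within slides 1 to 5 the difference of the core medians was -0.0061, -0.09, 0.06, 0.11 and -0.10, so no direction held over slides. The median over the core genes on an array averaged -0.07 ± 0.05 in mHFD and -0.06 ± 0.07 in mLFD (mean ± SD, n = 10 each). In 13 of the 14 genes the interval stayed within 1.3-fold.

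In the alpha ring, whose subunits form the gate of the core and the docking surface of the regulatory particle, 3 of 7 genes were above 0. Psma1 log ratios ran from -0.64 through a median of -0.28 to 0.06 in mHFD, and from -0.55 through 0.02 to 0.56 in mLFD. The groups overlapped over most of their range, but 9 of 10 mHFD samples lay below the mLFD mean. The Psma1 means were -0.26 ± 0.23 and -0.03 ± 0.32 (SD, n = 10 each), a difference of -0.23 (SE 0.11, 95% interval -0.47 to 0.0044, unadjusted p = 0.0540, adjusted p = 0.689 by limma). Within slides 1 to 5 it was -0.04, -0.54, -0.30, -0.05 and -0.23, the same sign on 5 of 5 slides.

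Psma3 ran from -0.28 through -0.19 to -0.15 in mHFD and from -0.38 through -0.15 to 0.22 in mLFD. The mHFD samples lay in a narrow band inside the wider mLFD range, and all 10 of them were below the mLFD mean. The means were -0.20 ± 0.04 and -0.09 ± 0.20 (SD, n = 10 each), and the difference was -0.11 (SE 0.06, adjusted p = 0.712 by limma).

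Psma6 took the opposite sign. Its log ratios ran from -0.20 through 0.03 to 0.12 in mHFD and from -0.35 through -0.11 to 0.09 in mLFD. Of the mHFD samples 4 lay above the highest mLFD sample. The difference was 0.11 (SE 0.06, 95% interval -0.0035 to 0.23, unadjusted p = 0.0566, adjusted p = 0.689 by limma), and it was above 0 on 4 of 5 slides.

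Psma7 ran from -0.30 through -0.15 to 0.03 in mHFD and from -0.66 through -0.17 to -0.04 in mLFD. The medians nearly coincided, and mLFD reached lower values. The difference was 0.09 (SE 0.07, p = 0.201 by limma without adjustment), and 0.04 without mLFD 06. It was 0.39 on slide 4 and 0.20 on slide 3, and below 0 on the other slides. The other alpha subunits Psma2, Psma4 and Psma5 differed by -0.0030, 0.02 and -0.11.

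In the constitutive beta ring 4 of 7 genes were above 0, and the highest of these was Psmb4, a subunit with no active site. Psmb4 ran from -0.15 through 0.02 to 0.24 in mHFD and from -0.32 through -0.08 to 0.10 in mLFD. Of the mHFD samples 3 lay above every mLFD sample, and the rest overlapped with them. The means were 0.04 ± 0.14 and -0.08 ± 0.11 (SD, n = 10 each), a difference of 0.12 (SE 0.06, 95% interval -0.00028 to 0.24, unadjusted p = 0.0505, adjusted p = 0.689 by limma). Within slides 1 to 5 it was -0.03, 0.07, 0.27, 0.20 and 0.08. Psmb1, Psmb2 and Psmb3, the other beta subunits without an active site, differed by 0.06, 0.02 and -0.08.

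The constitutive catalytic subunits did not separate the groups. Psmb5, which carries the chymotrypsin-like site, ran from -0.03 through 0.08 to 0.41 in mHFD and from -0.18 through 0.09 to 0.21 in mLFD on its brighter probe, at chr14:55232957-55233016. The groups had like medians, and the difference was 0.03 (SE 0.05, 95% interval -0.09 to 0.14, p = 0.638 by limma without adjustment). Its sign was not stable: it was below 0 with median centring in place of loess, with the scanner's own log ratio, in the authors' deposited table, with slide position as a covariate, on slides 1 and 5 alone, and without mHFD 03 or mLFD 06. The dimmer Psmb5 probe, whose start lies 204 bases away, gave -0.13 (SE 0.07, p = 0.0935 by limma without adjustment). Over the 20 arrays, with the mean of each group removed, the probes correlated at r = -0.30.

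Psmb6, with the caspase-like site, ran from -0.53 through -0.04 to 0.13 in mHFD and from -0.34 through 0.07 to 0.39 in mLFD. Most of both groups shared the same range. The difference was -0.13 (SE 0.10, 95% interval -0.33 to 0.07, p = 0.197 by limma without adjustment), and it was above 0 on slide 4 only, at 0.13.

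Psmb7, with the trypsin-like site, ran from -0.56 through -0.20 to -0.03 in mHFD and from -0.60 through -0.15 to 0.08 in mLFD. Its difference was -0.09 (SE 0.08, 95% interval -0.26 to 0.07, p = 0.256 by limma without adjustment). The interval of Psmb5 was narrower than those of Psmb6 and Psmb7.

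The immunoproteasome genes all had a difference below 0, and none passed the threshold. Psmb8 ran from -0.24 through -0.03 to 0.12 in mHFD and from -0.31 through 0.11 to 0.31 in mLFD. The mLFD samples spread further in both directions, so the groups overlapped entirely on the low side. The means were -0.03 ± 0.11 and 0.06 ± 0.19 (SD, n = 10 each), a difference of -0.09 (SE 0.07, 95% interval -0.23 to 0.05, adjusted p = 0.755 by limma).

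Psmb9 ran from -0.35 through -0.04 to 0.03 in mHFD and from -0.34 through 0.04 to 0.18 in mLFD. The lowest samples of both groups were alike, and the highest values were in mLFD. The difference was -0.11 (SE 0.06, 95% interval -0.24 to 0.02, unadjusted p = 0.0839, adjusted p = 0.709 by limma).

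Psmb10 ran from -0.35 through -0.08 to 0.01 in mHFD and from -0.31 through -0.01 to 0.14 in mLFD. Again the upper ends differed more than the lower ends. The difference was -0.08 (SE 0.05, 95% interval -0.19 to 0.03, adjusted p = 0.746 by limma).

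Each of the 3 genes was below 0 on 4 of 5 slides and above 0 on slide 3, where Psmb8 differed by 0.07, Psmb9 by 0.08 and Psmb10 by 0.09. The median of the 3 genes on an array averaged -0.06 ± 0.07 in mHFD and -0.00032 ± 0.15 in mLFD (mean ± SD, n = 10 each), and by slide its difference was -0.08, -0.25, 0.15, -0.06 and -0.06. The intervals of the 3 genes reached 1.18-fold lower and 1.03-fold higher. None of the 3 had an unadjusted p under 0.05 as fitted here. Each of them reached it in 3 alternative settings, always with a difference below 0. Among these settings, Psmb8 did so with the scanner's own log ratio (-0.19, p = 0.0153, adjusted p = 0.846 by limma). Psmb9 did so without mLFD 05 (-0.15, p = 0.0102, adjusted p = 0.595 by limma) and Psmb10 without mLFD 06 (-0.11, p = 0.0350, adjusted p = 0.872 by limma).

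**Figure D2:**
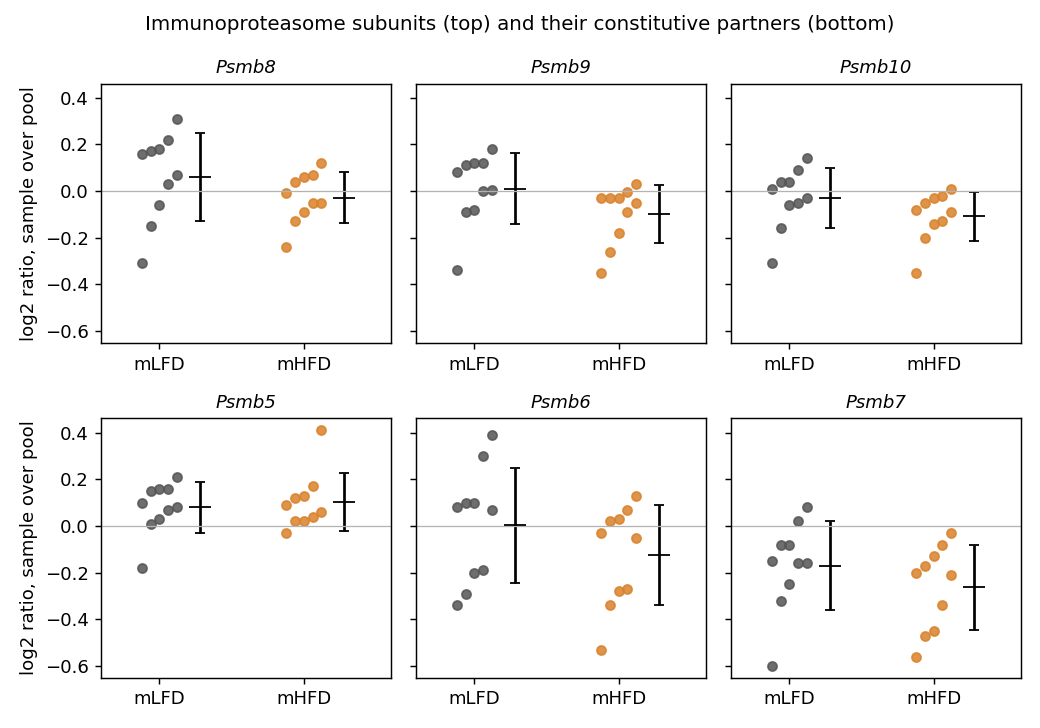
Log2 ratio of sample over pool in each of the 20 mice for the immunoproteasome genes Psmb8, Psmb9 and Psmb10 (top) and their constitutive partners Psmb5, Psmb6 and Psmb7 (bottom). Points are mice, and bars give the mean and SD of a group (n = 10). The groups overlap in every panel, with Psmb9 at -0.35 to 0.03 in mHFD and -0.34 to 0.18 in mLFD.

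The exchange of subunits was examined as the log ratio of the immunoproteasome gene minus that of its partner on the same array. This contrast is of deviations from the pool, so it gives no ratio of molecules. Psmb8 minus Psmb5 averaged -0.13 ± 0.15 in mHFD and -0.02 ± 0.13 in mLFD (mean ± SD, n = 10 each). The difference was -0.12 (95% interval -0.25 to 0.02, 2-sided permutation p = 0.0786, or 0.236 adjusted over the 3 pairs). With the dimmer Psmb5 probe, chosen after its values were seen, the difference was 0.04, so the sign depended on the probe.

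Psmb9 minus Psmb6 averaged 0.03 ± 0.27 and 0.0081 ± 0.37 (SD, n = 10 each), a difference of 0.02 (95% interval -0.28 to 0.32, permutation p = 0.906, adjusted 0.906). Psmb10 minus Psmb7 averaged 0.16 ± 0.20 and 0.14 ± 0.20 (SD, n = 10 each), a difference of 0.01 (95% interval -0.17 to 0.20, permutation p = 0.874, adjusted 0.906). For these pairs the immunoproteasome gene and its partner had differences of similar size and sign.

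Genes that act with the immunoproteasome in peptide presentation were listed as well. Of 12 listed genes 10 were measured, and Tap1 was among those not well above background on enough arrays. Of the 10, 3 were above and 7 below 0, with a median difference of -0.06 and 0 called (1 at an unadjusted p under 0.05). Tap2, a subunit of the peptide transporter, differed by -0.14 (SE 0.06, unadjusted p = 0.0413, adjusted p = 0.689 by limma). Nlrc5, the transactivator of MHC class I genes, differed by -0.13 (SE 0.07, adjusted p = 0.689 by limma). B2m, the light chain of MHC class I and the brightest of the list, differed by -0.05 (SE 0.10). Beside these values, the mean of the 5 measured leukocyte markers lay between -0.04 and 0.22 in mHFD and between -0.06 and 0.22 in mLFD, with a median difference of 0.01 over the markers.

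Among the 6 ATPase genes 2 were above and 4 below 0, with a median of -0.06. The median over the ATPase genes on an array averaged -0.18 ± 0.14 in mHFD and -0.11 ± 0.18 in mLFD (mean ± SD, n = 10 each). By slide the difference was -0.03, -0.07, -0.02, -0.04 and -0.16, below 0 on 5 of 5 slides and small beside these SDs. Intervals were wider here, and 4 of 6 stayed within 1.3-fold.

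Psmc4 ran from -0.63 through -0.26 to 0.01 in mHFD and from -0.62 through -0.04 to 0.57 in mLFD. The lowest samples of the groups matched, and the high values were in mLFD. The means were -0.30 ± 0.26 and -0.06 ± 0.32 (SD, n = 10 each), a difference of -0.24 (SE 0.12, 95% interval -0.49 to 0.0076, unadjusted p = 0.0567, adjusted p = 0.689 by limma). Within slides 1 to 5 it was -0.02, -0.44, -0.49, -0.15 and -0.12.

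Psmc1 ran from -0.80 through -0.18 to 0.08 in mHFD (n = 10) and from -0.42 through -0.07 to 0.31 in mLFD (n = 9, since the spot of mLFD 08 was marked as an outlier and left out). Of the mHFD samples 4 lay below the lowest of these 9 mLFD samples. The difference was -0.19 (SE 0.10, 95% interval -0.41 to 0.03, unadjusted p = 0.0827, adjusted p = 0.708 by limma). It was below 0 on 5 of 5 slides, with mLFD 07 as the only mLFD mouse on slide 4. The dimmer probe gave -0.06 (SE 0.13) and was above 0 on slides 1 and 4, at 0.02 and 0.22. On it mLFD 08 was the lowest mouse at -0.57, and 0 mHFD samples lay below the lowest mLFD sample. The other ATPases were closer to 0 or more variable: Psmc2 differed by -0.08, Psmc3 by 0.02 and Psmc6 by 0.09, and Psmc5 by -0.05 with an SE of 0.15.

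The 14 Psmd genes had 8 differences above and 6 below 0, with a median of 0.02, and 12 of 14 intervals stayed within 1.3-fold. By slide the difference of the Psmd medians was 0.05, -0.08, 0.09, 0.08 and 0.0051. The class held subunits of different kinds, so it was split by role. The base subunits other than the ATPases, Psmd1, Psmd2 and Psmd4, which bind ubiquitin or ubiquitin-like domains or serve as scaffolds, were all above 0 (median 0.15). This did not hold for Psmd4 without mLFD 06, at -0.02, and by slide the difference of the base medians was 0.0011, 0.05, 0.26, 0.21 and -0.03. The 8 lid genes had 3 above and 5 below 0 (median -0.04), and the assembly factors Psmd5, Psmd9 and Psmd10 were at -0.07, 0.01 and 0.04.

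Psmd1, a scaffold subunit of the base, ran from -0.29 through -0.07 to 0.25 in mHFD and from -0.70 through -0.17 to -0.0034 in mLFD. The upper and lower ends both sat higher in mHFD, with most samples overlapping. The difference was 0.15 (SE 0.09, 95% interval -0.03 to 0.32, unadjusted p = 0.101, adjusted p = 0.713 by limma), above 0 on 5 of 5 slides and between 0.0063 (slide 1) and 0.38 (slide 4). Without mLFD 06, the lowest sample, it was 0.10.

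Psmd2, the other scaffold of the base, had the same difference of 0.15 (SE 0.13), but 0.02 without mHFD 06. This mouse stood at 1.14, all other values were between -0.42 and -0.09, and the difference was 0.83 on slide 3 against -0.10 to 0.06 on the other slides. Psmd4, a ubiquitin receptor, differed by 0.03.

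Psmd12, a structural lid subunit, ran from -0.37 through -0.18 to 1.17 in mHFD and from -0.48 through -0.17 to 0.01 in mLFD. Its difference of 0.18 (SE 0.14) was the highest of all members, and it was 0.04 without mHFD 08, the mouse at 1.17. The difference was 1.04 on slide 4, and -0.04 with slide 4 left out. The dimmer Psmd12 probe gave -0.01, and mHFD 08 was at -0.03 on it. Among the other lid genes the deubiquitinase Psmd14 differed by -0.05, Psmd7, its partner in the lid, by 0.06, and Psmd3 by -0.10 (SE 0.06, p = 0.126 by limma without adjustment). Psmd6, Psmd8, Psmd11 and Psmd13 differed by -0.04, -0.06, 0.04 and -0.04. Psmc3ip, outside the particle, differed by 0.06 (SE 0.05).

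**Figure D3:**
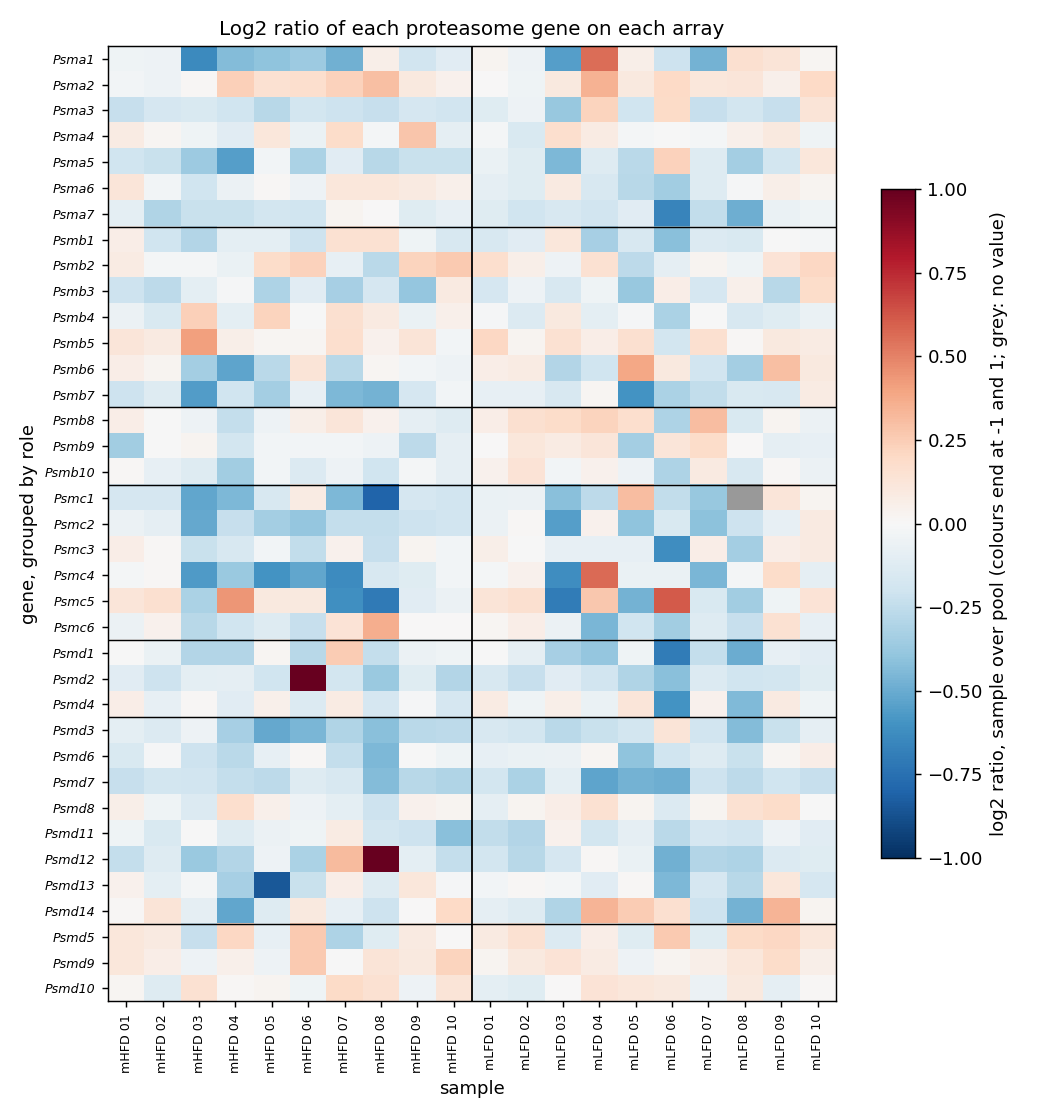
Log2 ratio of each proteasome gene (rows, grouped by role) in each of the 20 mice (columns), in colours cut at -1 and 1. Single cells stand out rather than whole groups of columns, such as Psmd2 in mHFD 06 (1.14) and Psmd12 in mHFD 08 (1.17).

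Probes of the same gene were not always alike. For 8 genes 2 probes were kept, and the differences had the same sign in 4 and opposite signs in 4 (Psmb5, Psmc3, Psmd10 and Psmd12). Over the 20 arrays, with the mean of each group removed, the correlation between the probes of a gene ran from -0.30 (Psmb5) to 0.83 (Psmc1), with a median of 0.46. Psmc2 (0.72), Psma4 (0.67) and Psmd9 (0.60) were on the high side, and Psmc3 (0.0067), Psmd12 (0.05) and Psmd10 (0.33) on the low side. Arrays share slide and labelling effects, so these correlations are descriptions.

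The log ratios of the members varied together only weakly over the mice. With the mean of each group removed, the mean pairwise correlation among the 37 genes was 0.07, with 391 of 666 pairs above 0, beside 0.0044 for all probes. It was 0.20 among the ATPase genes and fell to 0.0071 after the slide means were removed. Among the immunoproteasome genes it was 0.27, and 0.30 without slide means, and among the alpha genes 0.11 and 0.14. The beta genes were at -0.0052 and the Psmd genes at 0.03.

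The ATPase values differed between slides. Slide means took up 41.6% of the variance within groups of an ATPase gene (median over the 6 genes), against 26.7% for all 37 members and 27.5% for all probes. Part of such a share arises without any slide effect, because each slide mean came from 4 arrays. The ATPase medians averaged 0.00033 on slide 1 and -0.00099 on slide 5, and -0.28, -0.18 and -0.27 on slides 2, 3 and 4. The factor by which the scanner software had scaled the sample dye moved with them, at means of 1.26 and 1.98 on slides 1 and 5 and of 4.64, 4.33 and 3.29 on slides 2 to 4; its part in the values was not tested. Each slide carried 2 mice of each group, so slide is balanced over the groups. Position on the slide is not: mHFD arrays lay at positions 1 and 3 and mLFD arrays at positions 2 and 4 of every slide. A group difference, also one with the same sign on all slides, therefore cannot be told apart from a difference between these positions.

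The spread of the members on an array followed the same line. The SD over the 37 genes was 0.10 to 0.15 on the 8 arrays of slides 1 and 5 and 0.18 to 0.33 on the 12 arrays of slides 2 to 4. Over all probes the median absolute deviation was 0.11 to 0.17 and 0.13 to 0.23, and the dye factor was 1.15 to 2.49 and 2.40 to 6.10 on these arrays. On slides 1 and 5 alone, a choice made after the data were seen, the class medians were -0.04 for the core, -0.07 for the ATPases, -0.01 for Psmd and -0.09 for the immunoproteasome. Mouse mLFD 06 held the lowest value of 11 of the 37 genes, more than any other mouse, followed by mHFD 08 with 5.

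**Figure D4:**
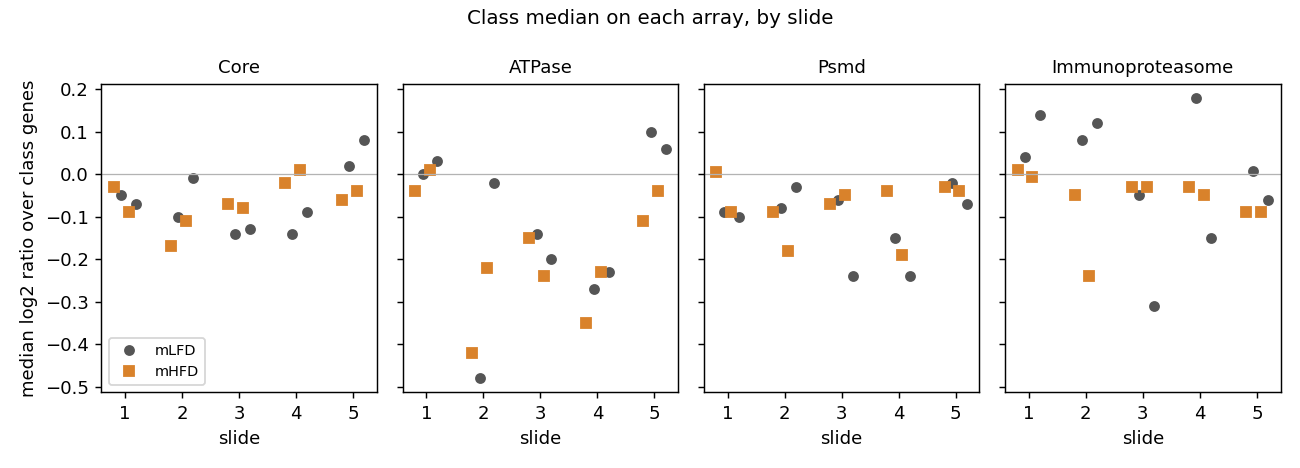
Median log2 ratio over the genes of a class on each of the 20 arrays, plotted by slide (horizontal axis, points set side by side by position) with mHFD and mLFD marked separately. The ATPase medians lie near 0 on slides 1 and 5 and lower on slides 2 to 4 in both groups. The order of the groups changes between slides in the core, where the difference is 0.11 on slide 4 and -0.10 on slide 5.

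The genes that work beside the particle were counted from lists. The proteasome activators and inhibitor had 2 of 5 genes above 0 (median -0.08) and 0 called. Psme1 and Psme2, which form the activator cap induced by interferon gamma, differed by -0.08 (SE 0.06) and 0.09 (SE 0.07), and Psme3, the nuclear activator, by -0.16 (SE 0.10). The 5 assembly chaperones lay near 0, with 4 above 0 and a median of 0.02, and Pomp, the maturation factor of the core, was at -0.02 (SE 0.04).

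Of 6 measured 26S-associated factors 2 were above and 4 below 0 (median -0.02), with 0 called and 1 at an unadjusted p under 0.05. This was Usp14, a deubiquitinase that binds the base at Psmd2 and trims ubiquitin chains. Its means were -0.61 ± 0.30 in mHFD and -0.30 ± 0.36 in mLFD (mean ± SD, n = 10 each), a difference of -0.31 (SE 0.14, 95% interval -0.59 to -0.03, unadjusted p = 0.0307, adjusted p = 0.689 by limma). Ubiquitin receptor Adrm1 and deubiquitinase Uchl5, which dock on the same base, were at -0.0087 and -0.02.

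The factor NRF1, encoded by Nfe2l1, is known to induce proteasome subunit genes together when the proteasome is impaired. Of the 7 genes of this axis 5 were above 0 (median 0.05), with 0 called. Nfe2l1 differed by 0.07 (SE 0.06) and Vcp, which extracts the factor from the membrane, by -0.05 (SE 0.05). Sel1l, a part of the degradation machinery of the endoplasmic reticulum, differed by 0.09 (SE 0.04, unadjusted p = 0.0167, adjusted p = 0.689 by limma).

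Ubiquitin and E1 genes had 4 of 6 above 0 (median 0.03), and shuttle factors, which bring substrates to the particle, 4 of 7 (median 0.0047). Of 9 ubiquitin ligases of muscle 3 were above 0 (median -0.01). The atrophy ligases Trim63 (MuRF1) and Fbxo32 (atrogin-1) differed by 0.31 (SE 0.18, p = 0.0957 by limma without adjustment) and 0.16 (SE 0.20). In none of these lists was a gene called.

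Promoters of the members were searched for the core of the antioxidant response element, the site that NRF1 is known to bind, because these genes are the textbook targets of that factor. RefSeq promoters of build GRCm38.p6 were found for 31 of the 37 genes (33 promoters), and the letters TGACNNNGC were sought on both strands in the 250 bases before the start. A match was present in 5 of 33 member promoters, or 15.2%, against 10.2% of 32851 promoters of all genes. The matches within 50 bases of the start belonged to Psmb6 (chr11:70525332-70525356, plus strand), Psmb5 (chr14:54618018-54618058, minus strand) and Psmd9 (chr5:123228143-123228183, plus strand), with the matched letters in capitals.
Psmb6: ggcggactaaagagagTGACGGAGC
Psmb5: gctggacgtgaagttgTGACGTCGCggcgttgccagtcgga
Psmd9: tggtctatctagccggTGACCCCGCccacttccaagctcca
The genes with a match differed between the groups by 0.03 (Psmb5), -0.13 (Psmb6), 0.09 (Psmc6), 0.01 (Psmd9) and 0.18 (Psmd12). A match is a stretch of letters and not a measured binding site.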

How the data were processed

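Quadriceps RNA of 10 mHFD and 10 mLFD mice (200 ng each) was labelled with Cy5 and hybridised with a Cy3-labelled pool of all samples, without dye swap, per the labels. The arrays lay on 5 slides of 4. Per the file headers, the deposited scanner files (Agilent Feature Extraction 10.7.3.1) hold spot and background intensity values and flags for each dye, and the software's log10 ratio (Cy5 over Cy3). The authors' deposited table of log2 values (19377 spots) served as an alternative; its scale and centring are not given in the sources used here.

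Mean signals were corrected with normexp (offset 50) and log2 ratios normalized by loess. Control spots (1377) and outlier spots were left out and probes detected well above background on 10 or more arrays in Cy5 kept (19206 of 39429). Groups were compared with limma 3.58.1 in R 4.3.3, two-sided, with Benjamini-Hochberg adjustment over all probes, and subunit pairs by 100000 permutations. The steps were tested on simulated data. The number of arrays limits the precision. Members and lists were chosen with earlier results of these data known. Per-sample values are given for the catalytic genes and for up to 5 genes of smallest p in each direction. Replicate numbers, which the labels do not tie to litters, were not used as pairs.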

Additional observations from a re-analysis of the deposited data

Results flagged for a closer look

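In 6 of 76 combinations of a gene (the 37 proteasome genes and Psmc3ip) and a group, the highest or lowest mouse stood far from the other 9, where chance alone gives about 1 in 20, or 3.8. The number in brackets is the gap to the nearest mouse divided by the range of the group. Psmd2 was high in mHFD 06 (0.814), Psmd12 was high in mHFD 08 (0.554), and Psmd13 was low in mHFD 05 at -0.85 (0.543). Psmb5 was high in mHFD 03 (0.538) and low in mLFD 06 (0.482), and Psmb9 was low in mLFD 05 (0.472). On the second Psmd12 probe mHFD 08 was at -0.03, and on the second Psmb5 probe mHFD 03 was at -0.44 and mLFD 06 at 0.07, so these values were not shared by probes of the gene. Psmd2, Psmd13 and Psmb9 had a single kept probe.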

How the results depend on the processing

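No member probe passed the adjusted threshold by limma in any of the 40 settings, and 0 to 8 member probes had an unadjusted p under 0.05 (0 in the reported fit, 8 without mLFD replicate 3, namely Psma1, Psma3, Psma5, Psma6, Psmb4, Psmc1, Psmc4 and the dimmer Psmb5 probe). The smallest adjusted p of a named member was 0.401 (Psma1 and Psmc4, with the replicate block). Over all settings the class medians ran from -0.04 to 0.02 for the core, from -0.12 to -0.03 for the ATPases, from -0.01 to 0.04 for Psmd and from -0.19 to -0.04 for the immunoproteasome, so the core and Psmd medians have no stable sign.

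The count over all 19206 probes, 1 as reported, was 0 with the scanner's log ratio, normexp offset 0, median centring, scaling between arrays, Cy5 alone, the authors' table, slide as a fixed block, position as a covariate, without slide 1, 2, 3 or 4, and with slides 1 and 5 only. It was 0 to 1 when single arrays were left out. With the replicate number as a block it was 2, with 4 member probes at an unadjusted p under 0.05 (Psmb4, Psmd1, Psma1 and Psmc4). Same-numbered mice correlated at -0.0099 to 0.35, over 0.1 in 8 of 10 pairs, and 3 of 10 mHFD mice correlated best with their own number. Same-numbered mice always lay at neighbouring positions of one slide, so a shared number cannot be told apart from this shared placement. The Psmb5 difference turned to -0.02 with the scanner's log ratio, median centring and the authors' table, to -0.05 with position, to -0.03 on slides 1 and 5, and ran from -0.0081 to 0.04 when single mice were left out (-0.0081 without mHFD 03, -0.0029 without mLFD 06). Psmd12 was -0.04 without slide 4, and Psma7 was -0.04 on slides 1 and 5. With position as a covariate several other differences shrank: Psma1 and Psmc4 to -0.13 each, Psma3 to -0.04, Psmb7 to -0.01, and Psmd1 and Psmb4 to 0.05 each. In the same setting Psmb8 and Psmb10 grew to -0.15 and -0.13, and Psmc1 (-0.20) and Psmd12 (0.19) hardly moved. No position held mice of both groups, so the fit with position cannot separate position from group, and the cause was not tested. Apart from Psmc3ip, every member was well above background on all 20 arrays.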

Other observations

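Markers of the other cell types in the muscle were measured beside the members, and their part in the member values was not tested. The 5 adipocyte markers were all below 0 (median difference -0.35, 0 called), with list means between -0.83 and 0.25 in mHFD and between -0.92 and 0.73 in mLFD. Of the 4 fibroblast markers 3 were below 0 (median -0.15), with Col1a1 at -0.34 (unadjusted p = 0.00993, adjusted p = 0.689 by limma). The 4 endothelial markers had a median of -0.03, with Vwf at -0.25 (SE 0.08, unadjusted p = 0.00417, adjusted p = 0.679 by limma). The 2 blood markers had a median of 0.0047. Of the 7 muscle fibre markers 6 were above 0 (median 0.02), with the fast myosin gene Myh4 at 0.19 (SE 0.08, unadjusted p = 0.0271, adjusted p = 0.689 by limma).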
